A study of Mus musculus with 6 samples.

Results

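Caveolins and EHD proteins shape the cell surface and the tubes through which internalised membrane returns to it. The set described here held 8 genes: the caveolin genes Cav1, Cav2 and Cav3, the EHD ATPase genes Ehd1, Ehd2, Ehd3 and Ehd4, and Pacsin2, an F-BAR protein gene. They are 8 of the 19938 genes measured. Each was represented by the probe set with exactly 1 gene symbol and the highest mean signal, and each of the 8 had 1 such probe set. The set was chosen by its log2 difference between Dusp6 knockout and wild-type cells, which was already known: Cav2 and Ehd3 were among the genes that differed most, and the others are their relatives. The genotype differences of the 8 genes are therefore a description with no test.

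The cells were mouse B cell precursors (pre-B cells) transformed with BCR-ABL1, the oncogenic kinase made by the Philadelphia translocation (Ph) in acute lymphoblastic leukaemia (ALL). Both groups carried BCR-ABL1 and came from mice of the C57Bl/6-SV129j background. One group was Dusp6 WT (3 arrays) and the other Dusp6 KO (3 arrays). Dusp6 encodes a phosphatase of the cytoplasm that switches off the kinase ERK. The labels do not give the deleted part of Dusp6, the age of the mice, the vector that delivered BCR-ABL1, or whether replicate arrays stand for separate mice or cultures. P-values thus reflect only how far these samples scatter, and that scatter may be technical.

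As background, caveolae are small flask-shaped pits of the plasma membrane. CAV1 is the scaffold of their coat in most cells, CAV2 assembles with CAV1 and depends on it to reach the surface, and CAV3 takes the place of CAV1 in muscle. Cavins cover the coat, PACSIN2 bends the membrane, and EHD2 forms a ring at the neck. EHD1, EHD3 and EHD4 act further inside, where they remodel the tubules of early and recycling endosomes, and they bind partners that carry asparagine-proline-phenylalanine motifs. Lymphocytes are known for few caveolae, whereas endothelial cells, adipocytes and muscle are rich in them.

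The arrays gave 1 log2 signal per probe set. Dusp6 fell by 3.36 ± 0.052 on the log2 scale in the knockout arrays (SE; limma adjusted p = 4.3e-10), but whether its probes lie in the deleted part is not known here. Arrays of one genotype correlated at 0.996 to 0.998, and arrays of different genotypes at 0.987 to 0.989. Of 17 B lineage markers measured, 17 were above the yardstick of dim signal in both genotypes, including the surrogate light chain gene Igll1 (14.5 in both). That yardstick was the 95th percentile of 1238 olfactory, vomeronasal and keratin-associated genes, 7.98 in wild type and 7.95 in knockout on the log2 scale. It shows only whether a signal was brighter than those genes, since signals of different probe sets do not rank genes by abundance.

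Promoter sequences are shown for the gene that was highest in the knockout relative to wild type (Cav2), for its neighbour that differed little (Cav1), and for the gene that was lowest (Ehd3). They were taken from RefSeq on GRCm38.p6 and run from 250 bases before the transcription start to 50 bases after it, 5′ to 3′ on the strand of the gene. The Cav2 window is chr6:17280935-17281234, that of the first Cav1 start is chr6:17306085-17306384, and that of Ehd3 is chr17:73804591-73804890, all on the plus strand. Capitals mark matches, on either strand, to any of 6 motifs: AP-1 (TGANTCA), CRE (TGACGTCA), ETS (CCGGAA), the GC box (GGGCGG), the E-box (CACGTG) and the CCAAT box (CCAAT).
Cav2: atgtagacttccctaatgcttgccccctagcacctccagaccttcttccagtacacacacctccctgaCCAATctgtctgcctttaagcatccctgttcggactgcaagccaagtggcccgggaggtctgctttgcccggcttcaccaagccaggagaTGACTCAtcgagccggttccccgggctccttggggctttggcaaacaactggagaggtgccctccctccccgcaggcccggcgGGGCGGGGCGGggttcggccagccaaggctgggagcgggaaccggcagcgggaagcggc
Cav1: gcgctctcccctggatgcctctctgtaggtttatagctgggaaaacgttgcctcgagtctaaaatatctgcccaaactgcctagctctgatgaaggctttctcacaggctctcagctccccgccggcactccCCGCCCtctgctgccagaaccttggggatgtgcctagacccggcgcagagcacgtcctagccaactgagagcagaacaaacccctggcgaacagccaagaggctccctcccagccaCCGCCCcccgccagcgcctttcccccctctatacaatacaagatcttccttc
Ehd3: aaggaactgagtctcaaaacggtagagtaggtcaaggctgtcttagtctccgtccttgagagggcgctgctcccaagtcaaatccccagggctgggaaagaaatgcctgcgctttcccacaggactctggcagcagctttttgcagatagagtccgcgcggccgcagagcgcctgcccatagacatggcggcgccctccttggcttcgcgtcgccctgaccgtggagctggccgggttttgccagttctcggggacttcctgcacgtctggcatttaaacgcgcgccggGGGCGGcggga

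The Cav2 window held 1 AP-1 match beginning 92 bases before the start, 1 CCAAT box and 2 GC boxes that share a base. The first Cav1 window held 2 GC boxes, and the Ehd3 window held 1, which lay after the start. Among all 32841 promoter windows of this length, 7.81% held an AP-1 match, 37.4% a CCAAT box and 35.7% a GC box. The ETS motif (14.9% of windows), the E-box (7.15%) and the CRE (1.79%) were not found in these 3 windows. No match of one motif overlapped a match of another. Sequences were found for 7 of the 8 genes. Their first windows held between 6 CG dinucleotides (Cav3) and 29 (Ehd4), with 24 in Ehd3, 16 in Cav2 and 13 in Cav1. The windows of alternative starts held 16 in Cav1, and 4 and 3 in Pacsin2. The median was 7 over all windows, which include alternative starts. A second AP-1 match in the set lay in a window of an alternative start of Pacsin2. A match describes the letters of the window and no binding was measured.

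Of the 3 caveolin genes, Cav2 was 8.90-fold higher in the knockout cells, and Cav1 and Cav3 differed little. The Cav2 log2 signals were 6.61, 6.81 and 6.47 on the wild-type arrays and 9.84, 9.73 and 9.78 on the knockout arrays. The groups were far apart, with a gap of 2.92 between the highest wild-type and the lowest knockout array. The difference was 3.15 ± 0.078 (SE), the 8th largest increase among all genes. In wild type, Cav2 was brighter than 62.1% to 71.2% of the yardstick genes, and in knockout than 99.4% to 99.6%. Its wild-type signal was thus not above the yardstick's 95th percentile, and the size of its difference depends on a dim signal that was not tested against background.

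Cav1, the scaffold gene that lies next to Cav2 on chromosome 6, read 6.95, 7.05 and 6.95 in wild type and 7.26, 7.10 and 7.09 in knockout. Every knockout array was above every wild-type array, by only 0.040 at the nearest point. The difference was 0.17 ± 0.058 (SE). All 6 signals were below the yardstick's 95th percentile, between the 75.2 and 81.7 percent positions of the yardstick genes. The pair of neighbours thus gave a large and a small difference on the same arrays.

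Cav3, the muscle caveolin gene, read 8.15, 8.03 and 7.98 in wild type and 8.05, 7.87 and 7.89 in knockout. These groups overlapped, the only such case of the 8, and the difference of −0.12 ± 0.064 (SE) was small. Its signals lay at 94.2% to 96.4% of the yardstick genes, on the border of that gauge.

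**Figure D1:**
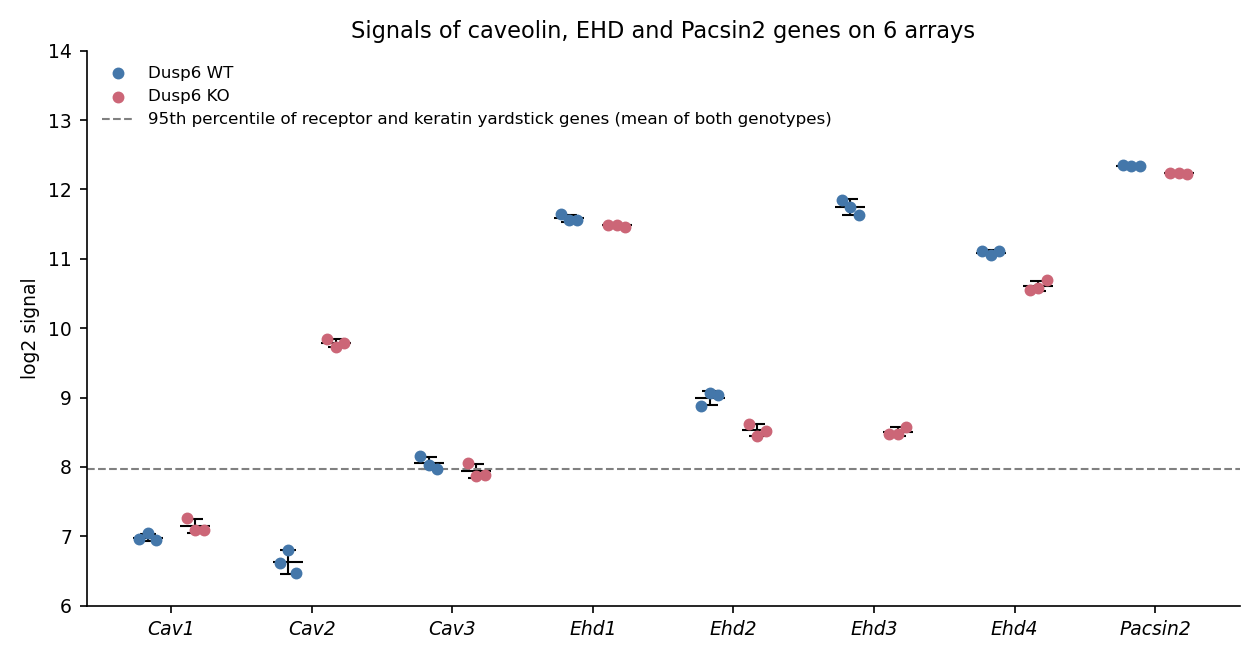
Log2 signal (vertical axis) of the 8 genes (horizontal axis) on 3 Dusp6 WT arrays (blue) and 3 Dusp6 KO arrays (red); black marks are means with SD, and the dashed line is the yardstick of dim signal, averaged over genotypes. Mean signals of Cav2 lie on either side of the line (6.63 in wild type, 9.78 in knockout), those of Ehd3 are 11.75 and 8.51, and the 2 genotypes lie much closer for the other genes.

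All 4 EHD genes had lower means in the knockout cells, and their groups did not overlap (18.4% of all genes had groups apart in this direction), but the sizes spanned a wide range. Ehd3, which acts in transport from early endosomes to the recycling compartment, was 9.44-fold lower. Its log2 signals were 11.85, 11.75 and 11.63 in wild type and 8.47, 8.47 and 8.58 in knockout. The lowest wild-type array was 3.05 above the highest knockout array. The difference was −3.24 ± 0.062 (SE), the 7th largest decrease among all genes. The knockout signals were brighter than 97.2% to 97.9% of the yardstick genes. Of 12 adipocyte and striated muscle markers, 8 were also above the yardstick's 95th percentile in both genotypes, among them Ckm (8.53 in knockout). The size of the Ehd3 difference thus also depends on a knockout signal that was not tested against background.

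Ehd4, an EHD gene of early endosomes, came next in the family. It read 11.11, 11.05 and 11.11 in wild type and 10.56, 10.58 and 10.69 in knockout, a difference of −0.48 ± 0.049 (SE). The groups were 0.36 apart at the nearest point. Ehd2, the caveola neck gene, read 8.87, 9.06 and 9.04 in wild type and 8.62, 8.44 and 8.52 in knockout, a difference of −0.46 ± 0.065 (SE). Both were 1.38-fold to 1.39-fold lower, and the Ehd2 groups were 0.25 apart. The Ehd2 knockout signals were brighter than 97.6% to 98.0% of the yardstick genes and were not tested against background.

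Ehd1, the best studied EHD gene of the recycling endosome, read 11.64, 11.57 and 11.55 in wild type and 11.49, 11.49 and 11.46 in knockout. The difference was −0.11 ± 0.043 (SE) and the groups were 0.059 apart. Pacsin2 read 12.36, 12.33 and 12.34 in wild type and 12.23, 12.24 and 12.22 in knockout. That difference was also small, at −0.11 ± 0.039 (SE), although the arrays of a genotype were very close to each other (SD 0.013 in wild type and 0.012 in knockout). Both genes were brighter than every yardstick gene on every array.

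In limma over all genes, 1 of the 8 genes was called higher (Cav2) and 3 were called lower (Ehd2, Ehd3 and Ehd4) at an adjusted p under 0.05. Over all 19938 genes, 19.8% were called, 9.66% higher and 10.2% lower. Groups that did not overlap were seen in 7 of the 8 genes, 2 higher and 5 lower, against 35.7% of all genes (17.3% higher and 18.4% lower). Because these differences were in view when the genes were chosen, the counts carry no weight beyond their description. The absolute log2 difference had a median of 0.32 over the 8 genes and 0.071 over all genes. Cav2 and Ehd3 exceeded 99.9% of genes in the size of their difference, Ehd2 and Ehd4 exceeded 95.3% and 95.5%, and Ehd1, Pacsin2, Cav3 and Cav1 exceeded 64.8% to 79.7%. In bulk samples such as these, fewer cells that express a gene and less RNA per cell cannot be told apart.

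**Figure D2:**
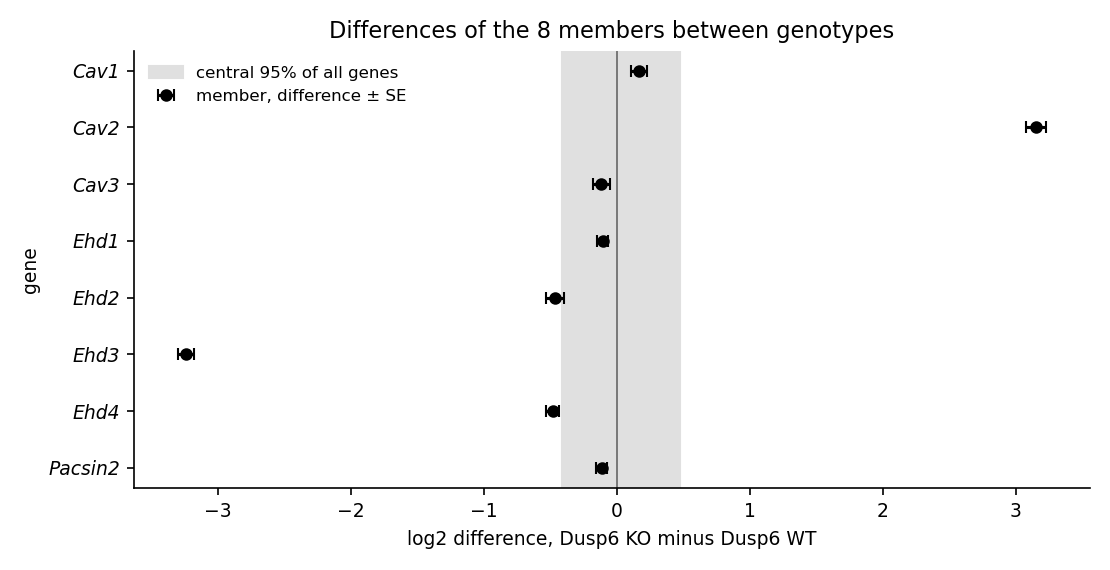
Log2 difference, knockout minus wild type (horizontal axis), for each gene (vertical axis), with limma's SE; the grey band holds the central 95% of all genes (−0.41 to 0.48). Cav2 (3.15) and Ehd3 (−3.24) lie far outside on opposite sides, Ehd4 (−0.48) and Ehd2 (−0.46) just below the band, and the other genes inside it.

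The genes beside the set along the chromosomes were examined next, taking the 3 nearest measured protein-coding genes on either side of each gene and leaving out other genes of the set. Of the 42 neighbours, 5 rose and 8 fell, or 31.0% against 19.8% of all genes, a share not matched for signal. Their median log2 difference was −0.0052 (0.0018 over all genes). Tes, which encodes testin, a protein of focal adhesions, lies on the other side of Cav2 from Cav1. It rose 2.46-fold, the widest difference of any neighbour, from 10.20, 10.14 and 10.14 in wild type to 11.44, 11.45 and 11.48 in knockout (limma adjusted p = 3.5e-08). The groups were well apart. St7, on the far side of Cav1, fell by 0.31 (limma adjusted p = 0.00096). Mdfic (0.045), Tfec (0.097), Met (0.028) and Capza2 (0.12) in the same stretch did not pass the test. The large differences there were thus those of Cav2 and Tes.

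Beside Ehd3, 4 of 6 neighbours were called, or 66.7% against 19.8% of all genes, all by small amounts. The share beside the other genes of the set was 0% to 33.3%. Xdh, the xanthine dehydrogenase gene, fell by 0.26, Memo1 by 0.21 and Dpy30, a subunit gene of histone methyltransferase complexes, by 0.21. Galnt14, a glycosyltransferase gene on the other side, rose by 0.20. Their limma adjusted p ranged from 0.0038 to 0.017, and the Xdh means, 7.72 and 7.46, were below the yardstick's 95th percentile in both genotypes. Memo1 lost its call without WT replicate 2 (adjusted p = 0.061) or KO replicate 2 (0.062). None of the 6 came near the Ehd3 difference of −3.24.

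Around the other genes, Ppp2r5b (0.49) and Cdc42bpg (0.19) beside Ehd1 rose. Beside Ehd2, Selenow rose by 0.49 and Bicra fell by 0.23. Beside Pacsin2, Ttll1 fell by 0.21 and Mcat by 0.26. Beside Cav3, Rad18 fell by 0.16 but lost its call without any 1 array except WT replicate 3 or KO replicate 1 (adjusted p from 0.080 to 0.121). None of the 6 neighbours of Ehd4 passed in limma, and 0 had an unadjusted p under 0.05.

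**Figure D3:**
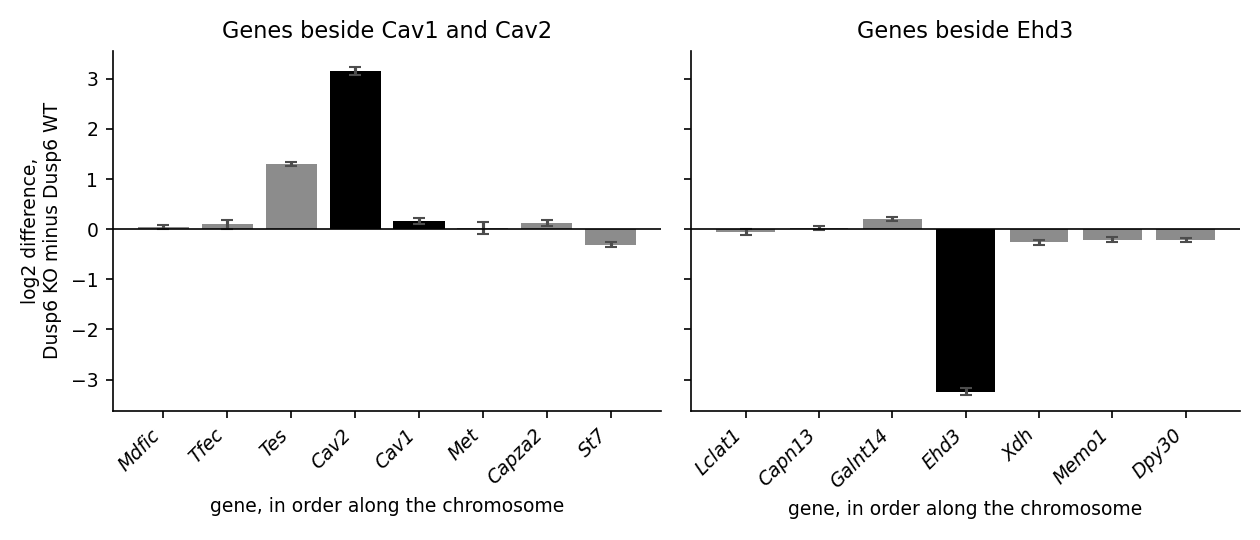
Log2 difference, knockout minus wild type, with limma's SE (bars and whiskers), for genes in their order along the chromosome, the set in black and neighbours in grey. Tes (1.30) is the tall neighbour of Cav2 (3.15) while Cav1 stays at 0.17, and the genes around Ehd3 lie between −0.26 and 0.20.

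Other genes of membrane trafficking were taken from 6 lists. Over the 142 measured genes, each counted once, 23 rose and 12 fell, or 24.6% against 19.8% of all genes. Here and for each list below, that share of all genes was not matched for signal. Of the dim yardstick genes, 3.47% were called, and most genes of each trafficking list were above the yardstick's 95th percentile in both genotypes. Among the 9969 genes at or above the median of mean signal, fitted alone, 1769 were called higher and 2206 lower. The first list held partners at the caveola. Of 11 caveola coat, flotillin and dynamin genes, 2 rose and 0 fell in limma, or 18.2% called against 19.8% of all genes. At an unadjusted p under 0.05 these were also 2 and 0. The median log2 difference was 0.022 (0.0018 over all genes). The cavin genes gave 0.0074 for Cavin1, −0.063 for Cavin2, 0.031 for Cavin3 and 0.0065 for Cavin4, none called. The means of Cavin2 (7.29 and 7.22) and Cavin4 (7.35 and 7.36) were below the yardstick's 95th percentile in both genotypes. Flot2, a flotillin scaffold gene, rose by 0.36, from 8.08, 8.04 and 7.92 to 8.42, 8.36 and 8.36 (limma adjusted p = 0.00089). The Flot2 wild-type mean, 8.01, was barely above the yardstick's 95th percentile. Dnm3, a dynamin gene, rose by 0.25 (adjusted p = 0.023), but lost its call without WT replicate 3 (adjusted p = 0.066), KO replicate 1 (0.069) or KO replicate 2 (0.076). Its means, 7.47 and 7.72, were below the yardstick's 95th percentile in both genotypes. The other Pacsin genes, Pacsin1 (0.022) and Pacsin3 (−0.0056), were not called.

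Of 27 EHD partner and recycling endosome genes, 2 rose and 2 fell, with a median of 0.024. The share called was 14.8%, beside 19.8% of all genes, a difference that was not tested. Acap1, a GTPase-activating protein gene for ARF6, rose by 0.20 (limma adjusted p = 0.011), and Snx4, a sorting nexin gene of receptor recycling, by 0.17 (0.030). Rab11fip1, a RAB11 effector gene, fell by 0.24 (0.022) and Rab4a, a GTPase gene of rapid recycling, by 0.20 (0.017). Of these, Acap1 was called whichever array was left out. Snx4 lost its call without any 1 array except KO replicate 1 (adjusted p from 0.051 to 0.099), and also with array medians centred (0.052). Rab11fip1 lost it without WT replicate 1 (0.058), KO replicate 2 (0.075) or KO replicate 3 (0.066). Rab4a lost it without WT replicate 1 (0.073), WT replicate 3 (0.058) or KO replicate 2 (0.062).

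Of 31 clathrin coat and EH-domain scaffold genes, 5 rose and 3 fell, or 25.8% called against 19.8% of all genes. The median was 0.014. Those that rose did so by 0.17 to 0.26, led by the clathrin heavy chain gene Cltc (limma adjusted p = 0.0022). The 3 that fell differed more. Synj2, a phosphoinositide phosphatase gene, fell by 0.85 (adjusted p = 3.6e-05), Dnajc6, which encodes the uncoating factor auxilin, by 0.56 (2.5e-05), and Ston1, an endocytic adaptor gene, by 0.40 (0.013). The Ston1 means, 7.77 and 7.37, were below the yardstick's 95th percentile in both genotypes.

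Of 36 BAR and F-BAR genes, the membrane-bending class to which Pacsin2 belongs, 10 rose and 4 fell, or 38.9% called against 19.8% of all genes. The median was nevertheless −0.022, since 21 of the 36 differences were below 0. Bin2, a BAR protein gene of blood cells, rose 8.26-fold, from 7.02, 7.20 and 6.94 to 10.22, 10.07 and 10.02 (limma adjusted p = 6.2e-09). Pstpip2, an F-BAR gene known from macrophages, rose 2.27-fold (adjusted p = 1.3e-06), the F-BAR tyrosine kinase gene Fes 1.73-fold (8.1e-06) and the amphiphysin gene Amph 1.39-fold (0.00026). The wild-type signals of Bin2 and Pstpip2, like those of Cav2, and the signals of Amph in both genotypes were below the yardstick's 95th percentile, so the sizes of these 3 differences rest on dim signals. The 4 that fell did so by 0.14 to 0.32. The list was drawn up with the rise of Bin2 known, so its count is not independent of that gene.

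Among 20 early endosome and RAB5 genes, 0 rose and 2 fell in limma, or 10% called against 19.8% of all genes. At an unadjusted p under 0.05 these were 3 and 2, and the median was 0.043. Rab31, a GTPase gene related to RAB5, fell by 0.51, from 10.66, 10.58 and 10.60 to 10.06, 10.12 and 10.11 (limma adjusted p = 2.8e-05). Appl1, a RAB5 effector gene, fell by 0.18 (0.029), but lost its call without any 1 array except WT replicate 1 or KO replicate 3 (adjusted p from 0.068 to 0.101).

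Of 17 genes in the list of retromer and sorting nexins, which also held WASH complex genes and Vps26c, 4 rose and 1 fell. The share called was 29.4%, against 19.8% of all genes, and the median was 0.053. Washc2, which links the WASH complex to retromer, rose by 0.35 (limma adjusted p = 0.00034) and was called whichever array was left out. Snx1 rose by 0.21 (0.029) and Vps26c by 0.18 (0.015), and Snx6 fell by 0.26 (0.029). Snx1 lost its call without any 1 array except KO replicate 1 (adjusted p from 0.054 to 0.101), and Snx6 without WT replicate 1, WT replicate 3, KO replicate 1 or KO replicate 3 (from 0.064 to 0.09998). Vps26c lost its call without WT replicate 2 (0.059) or KO replicate 3 (0.060).

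**Figure D4:**
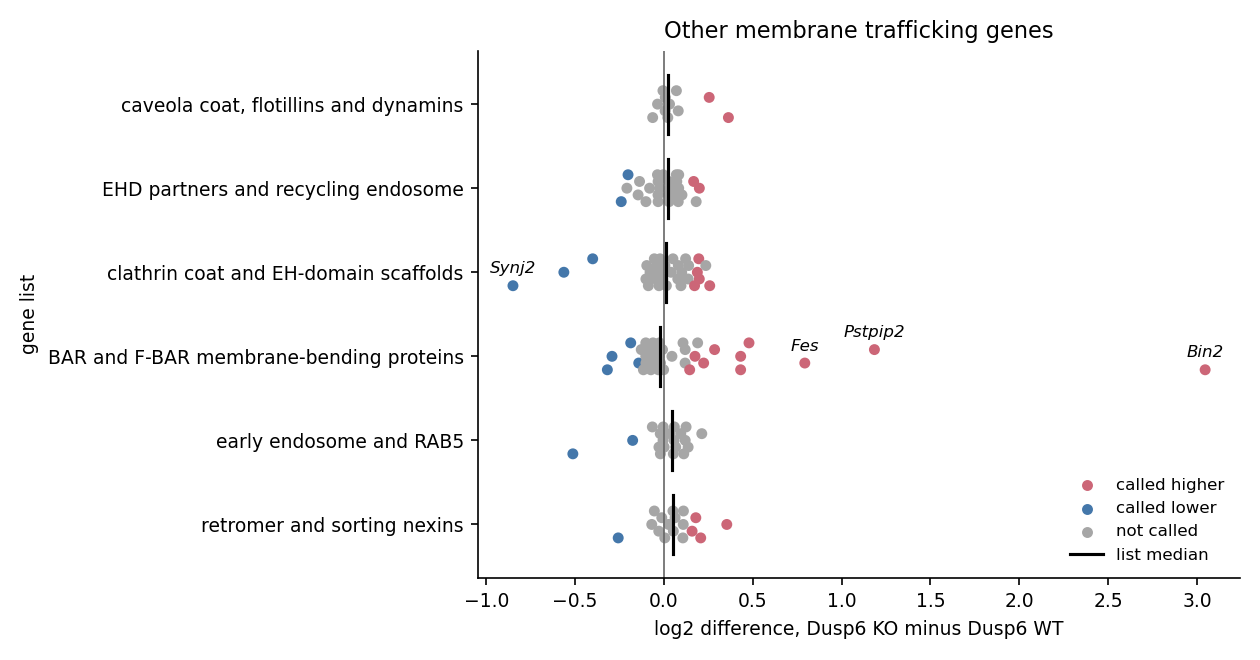
Log2 difference, knockout minus wild type (horizontal axis), of each gene in 6 trafficking lists (vertical axis), coloured by limma's call at an adjusted p under 0.05, with the list median as a black line. Medians lie between −0.022 and 0.053, and Bin2 (3.05), Pstpip2 (1.18), Fes (0.79) and Synj2 (−0.85) stand furthest out.

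Few markers of cells known for caveolae were called. The shares were 8.33% of endothelial, 0% of stromal and 0% of adipocyte and muscle markers. Over all genes the share was 19.8%, and over the dim yardstick genes 3.47%, so few calls among dim markers say little about those cells. Of 12 endothelial markers 1 was called, Pecam1, which rose by 0.51 and is also expressed by leukocytes, and 2 had an unadjusted p under 0.05, both higher. The second was Egfl7 (0.14), whose groups did not overlap. Of 13 stromal and smooth muscle markers and 12 adipocyte and striated muscle markers, 0 were called in limma and 0 had an unadjusted p under 0.05. The summed log2 signal of the endothelial list ran from 97.01 to 97.35 in wild type and from 97.43 to 98.41 in knockout. These groups did not overlap, but the sum includes Pecam1, whose difference was the largest of the list. A shift of the list as a whole is therefore not shown. Of single genes, 17.3% had groups apart in this direction. The stromal sum ran from 103.6 to 103.8 and from 103.7 to 104.3, and the adipocyte and muscle sum from 94.5 to 94.7 and from 94.0 to 95.2. Signals no brighter than the yardstick's 95th percentile in both genotypes were seen for 4 of 12, 7 of 13 and 4 of 12 of these markers. The defining endothelial markers Cdh5 and Tek differed by −0.0020 and 0.089, the latter with groups that did not overlap. Adipoq, a defining adipocyte marker, differed by −0.11. Tek and Adipoq were below the yardstick's 95th percentile in both genotypes, and Cdh5 (8.02 in both) was barely above it. Their small differences thus say little about whether such cells were present. Of 12 myeloid markers, Lyz2 rose by 0.70 and 0 fell, with sums of 91.0 to 91.9 in wild type and 92.0 to 92.2 in knockout. Of 10 T and NK cell markers, 0 rose and Zap70 fell by 0.15, with sums of 71.7 to 72.3 and 72.0 to 72.7. At an unadjusted p under 0.05 these were 2 and 1 in each of the last lists. The shares called were 8.33% of myeloid and 10% of T and NK cell markers. In both genotypes, 9 of 12 and 7 of 10 were no brighter than the yardstick's 95th percentile. Of the 17 B lineage markers, 3 rose and 6 fell, or 52.9% called against 19.8% of all genes, led by Dntt at −1.42. The part of any of these in the differences of the set was not tested.

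Genes whose pattern over the 6 arrays was most like those of Cav2 and Ehd3 were named by Pearson's r, as a description. For Cav2 they were Cnn2, an actin-binding calponin gene (r = 0.99993), Bin2 (0.99951) and the alpha-actinin gene Actn1 (0.99947). Cnn2 was 1.41 and Actn1 1.44 higher on the log2 scale in knockout. For Ehd3 they were Tbc1d23, a gene of endosome to Golgi transport (r = 0.99993), Fancl, a ubiquitin ligase gene of DNA repair (0.99977), and Pkd1l3, a polycystin gene (0.99965), with log2 differences of −0.59, −0.84 and −2.32. The 6 arrays form 2 genotype groups, so any gene that differs much between them gives a high r: 266 genes exceeded 0.99 for Cav2 and 233 for Ehd3.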

How the data were processed

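Total RNA of 6 samples, biotin-labelled, was measured on Affymetrix arrays. The deposited values are log2 signals. The authors used RMA and Partek 6.5, per the submitters' processing notes, with settings not given in the sources used here. That the scale is log2 follows from the values (3.23 to 14.8, array medians 8.38 to 8.42), and nothing was normalized again. RMA equalises array distributions, so differences are relative to the whole array, and it compresses differences of dim probe sets.

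Of 35556 probe sets, 21789 carried 1 gene symbol, 1621 several and 12146 none here. The brightest probe set of each gene left 19938 genes. These were fitted with limma 3.58.1 in R 4.3.3 (lmFit, eBayes, genotype only, all 6 arrays). Genes were called at a Benjamini-Hochberg adjusted p under 0.05. A simulated check of the procedure drew its variances from the prior that limma fits. Its first version, which used the sample variances, had missed a preset recovery bar. The check as run shares limma's assumption and does not show how well the calls hold in these data. Precision is limited by the number of arrays (median SE 0.051). Differences are knockout minus wild type; group errors are SDs (n = 3).

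The genes and lists were chosen with earlier results of these data known, and the motifs after the sequences were seen. Of 224 list entries 218 were measured. Named list genes are the called genes with the largest differences (up to 4 a list) or, where none passed, the 2 with the smallest p, together with called neighbours and the 3 most alike genes. Cavin, Pacsin and marker genes, and neighbours that were not called, were named outside that rule after their values were seen. Gene order and promoters came from RefSeq tables (GRCm38.p6). Alternatives were 2 scalings, 2 filters on dim genes, the mean of a gene's probe sets, limma's trend and robust options, the replicate number as a block, and each array left out.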

Additional observations from a re-analysis of the deposited data

How the results depend on the processing

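The difference of each of the 8 genes kept its sign in every setting in which it was measured. Without any 1 array, Cav2 ran from 3.07 to 3.24, Ehd3 from −3.29 to −3.19, Ehd4 from −0.52 to −0.45, Ehd2 from −0.52 to −0.42, Cav1 from 0.11 to 0.20, Cav3 from −0.17 to −0.067, Ehd1 from −0.12 to −0.078 and Pacsin2 from −0.12 to −0.11. Genes called higher over the whole array numbered 1491 to 2189 over the settings run, and genes called lower 1512 to 2411. Centring array medians gave 1734 higher and 2229 lower.

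Pacsin2 was also called lower, making 4 of the 8 genes in place of 3, under both filters on dim genes and under limma's trend and robust options. Removing genes below the median of mean signal left out Cav1, Cav2 and Cav3, so 0 of the 8 genes were called higher there; it also gave 0 caveola coat genes higher (3 measured), 4 EHD partner genes lower, 8 clathrin genes higher and 3 early endosome genes higher. Removing genes below the 25th percentile left out Cav1 and gave 2 early endosome genes higher. Limma's trend and robust options gave 8 clathrin and 3 early endosome genes higher. Centring array medians gave 1 EHD partner gene higher. The cause of these changes was not tested, except that filters leave fewer genes.

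With the replicate number as a block, EHD partner genes gave 1 higher, and early endosome genes 1 higher and 1 lower. The list of retromer and sorting nexins gave 2 higher and 0 lower, and all genes gave 1681 higher and 1764 lower. Under the block the limma calls of Snx4 (adjusted p = 0.071), Snx1 (0.057), Snx6 (0.058), Appl1 (0.052) and Rad18 (0.061) were lost. Same-numbered arrays did not deviate together (correlations 0.0098, −0.12 and 0.053), so the numbers were not taken as pairs. Without any 1 array, 1 to 2 caveola coat genes were higher. EHD partner genes gave 1 to 2 higher and 0 to 2 lower. Early endosome genes gave 0 to 2 higher and 1 to 2 lower. The list of retromer and sorting nexins gave 1 to 4 higher and 0 to 1 lower. No detection calls were used to show which dim signals exceed background.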
